A study of Mus musculus with 6 samples.

Results

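The genes described are 9 transcription factor genes of the interferon system: the interferon regulatory factor (IRF) genes Irf1, Irf2, Irf3, Irf4, Irf5, Irf7, Irf8 and Irf9, and Stat2. They are listed by symbol and were found through their Ensembl identifiers among the 21780 genes of the count table. All 9 passed the filter on low counts. RNA-Seq was performed on CD45+CD11b+ cells, the leukocytes that carry the myeloid integrin CD11b, sorted from the pancreas of wild-type C57BL/6 mice 7 days after an intraperitoneal (IP) injection. The 3 PBS libraries came from mice given saline and the 3 WGP libraries from mice given 1 mg of whole β-glucan particles (WGP), a particulate yeast β-glucan from Saccharomyces cerevisiae. The mice were 6 to 8 weeks old and of both sexes, with the sex behind each library not given, and carried no engineered allele. The comparison asks how the RNA of pancreatic myeloid cells differed a week after exposure to the particles, the setting in which the study examined trained innate immunity. Per the study, each sample was from a separate animal, all in a single experiment, so p-values measure the spread between animals of that experiment.

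IRFs are DNA-binding proteins that recognise GAAA repeats in the promoters of interferon genes and of the genes that interferons induce. IRF3 and IRF7 lie downstream of nucleic acid sensors and switch on type I interferon genes, and IRF9 joins STAT proteins, STAT2 among them, in the complex that carries the signal of the type I interferon receptor to the nucleus. IRF1 is induced by interferon gamma, IRF2 binds the same sites and often opposes it, and IRF4, IRF5 and IRF8 shape macrophages, dendritic cells, monocytes and B cells.

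Total counts per library ranged from 35334645 to 43341834. The CD45 gene Ptprc and the CD11b gene Itgam were measured in all 6 libraries, and the lowest values were 949 CPM and 189 CPM. CPM, the unit used throughout, sets the counts of a gene against those of its whole library. Levels here are CPM scaled by TMM, a factor per library that evens out differences in composition, and fold changes are WGP over PBS. PBS replicate 1 stood apart from the other PBS libraries on the second principal component, which held 12.7% of the variance, and held the highest PBS sums of several marker lists, described below beside Irf4. Counts of Y-linked genes were 8972 and 10063 in PBS replicates 2 and 3 and at most 1 in each other library, so the libraries that held them were all in the PBS group. In a bulk sample a smaller share of a cell type and less RNA per cell cannot be told apart, and this holds for each result that follows.

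In the WGP libraries 6 members rose, Irf1, Irf7, Stat2, Irf2, Irf8 and Irf5, and 1 member, Irf4, fell (edgeR quasi-likelihood test, adjusted p of at most 0.05). Irf3 and Irf9 did not pass. Over all 14429 genes tested 14.4% passed, 7.54% as rises and 6.81% as falls. With a log2 fold change of at least 1 in size as well, 4 members passed, against 9.49% of all genes. Of these Irf1, Irf7 and Stat2 were higher in the WGP libraries, against 4.53% of all genes, and Irf4 was lower, against 4.96%. The 3 WGP libraries lay wholly to one side of the 3 PBS libraries for 8 members, against 32.0% of all genes, and Irf3 was the exception.

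**Figure D1:**
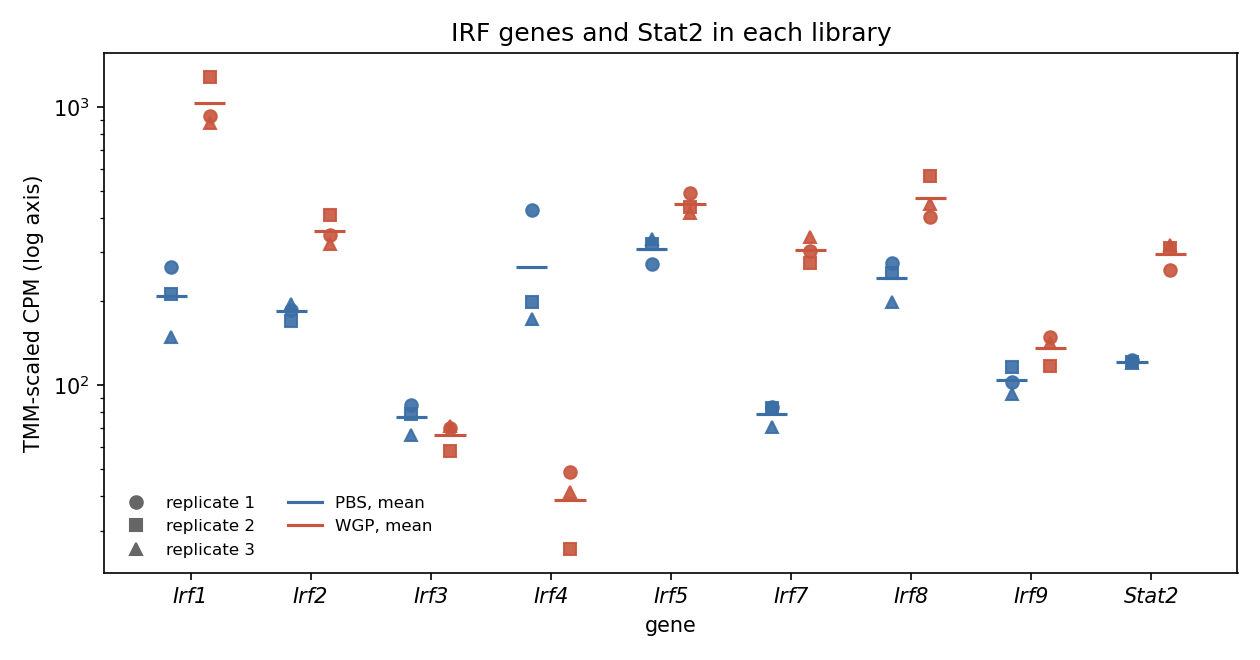
Level of each of the 9 genes in TMM-scaled CPM on a log axis, with 1 point per library (3 PBS, 3 WGP) and bars at the group means. The WGP points lie above all PBS points for 7 genes and below them for Irf4, and the Irf3 points overlap.

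Promoters are shown for the 4 members whose promoter window held a motif. All of them rose in the WGP libraries, as did Irf5 and Irf7, whose windows held none. RefSeq windows (GRCm38.p6) from 250 bases before to 50 bases after each transcription start were searched on both strands for the core of the interferon-stimulated response element, ISRE (GAAA, any 2 bases, GAAA), the gamma-activated site, GAS (TTC, any 3 bases, GAA), and the composite element of ETS factors and IRFs (GGAA, any 2 bases, GAAA). All 9 members had a window, 12 in all. The ISRE core stood in the windows of Irf2 and Stat2, the GAS in those of Irf1, Irf2 and Irf8, and the composite element in those of Irf2 and Stat2, where it overlapped the ISRE core. Of all 32851 windows 3.44% held the ISRE core, 8.30% the GAS and 2.72% the composite element. A match says only that the letters occur there. The sequences are given 5′ to 3′ on the plus strand, which is also the strand of these 4 genes, with the matched motifs in capitals. They span chr11:53769900-53769956 for Irf1, chr8:46739495-46739553 for Irf2, chr8:120736163-120736237 for Irf8 and chr10:128270252-128270315 for Stat2.
Irf1: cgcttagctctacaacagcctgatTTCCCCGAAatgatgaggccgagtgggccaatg
Irf2: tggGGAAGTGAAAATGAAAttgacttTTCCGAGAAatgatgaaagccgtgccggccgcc
Irf8: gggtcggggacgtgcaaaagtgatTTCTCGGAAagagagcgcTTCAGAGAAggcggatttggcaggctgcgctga
Stat2: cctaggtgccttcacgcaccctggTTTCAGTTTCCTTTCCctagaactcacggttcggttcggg

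The GAS of Irf1 began 90 bases before the start. The run of capitals in Irf2 joins the composite element, which began 247 bases before the start, to the ISRE core at 241 bases, and the separate run is its GAS at 224 bases. Irf8 held 2 GAS matches, at 171 and 153 bases before the start. In Stat2 both matches read on the opposite strand, so the capitals show their reverse complement, from 222 bases before the start. The windows of Irf3, Irf4, Irf5, Irf7 and Irf9 held none of the 3 letter patterns. Annotated exons of Irf9 covered all 250 bases before the start in 1 of its windows and 88 in the other.

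Irf1 (ENSMUSG00000018899, GRCm38 chr11:53770014-53778374), the activator that interferon gamma induces, showed the highest rise of the 9 genes. Its level was 267, 212 and 149 CPM in the PBS libraries and 930.3, 1284 and 872 CPM in the WGP libraries. Every WGP library held more than 3 times the level of any PBS library. The means were 209 ± 58.8 and 1029 ± 223 CPM (SD, n = 3 each), a log2 fold change of 2.30 (SE 0.24, adjusted p = 0.000153 in edgeR). Irf1 shares 135 exonic bases with Gm17334 on the opposite strand, and the strand setting of the counting is not given in the sources used here.

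Irf2 (ENSMUSG00000031627, chr8:46739732-46847458), which competes with IRF1 for its sites, was at 187, 169 and 196 CPM in the PBS libraries and at 345, 407 and 322 CPM in the WGP libraries. The groups did not overlap, and the PBS libraries were close together. The rise from 184.0 ± 13.6 to 358 ± 44.4 CPM was a log2 fold change of 0.96 (SE 0.15, adjusted p = 0.00170 in edgeR). Per kilobase of exon of the protein-coding transcripts, the level of Irf1 was 1.07, 0.939 and 0.570 times that of Irf2 in the PBS libraries and 2.02, 2.36 and 2.03 times in the WGP libraries. With the union of all annotated exons as the length these ratios were 2.66, 2.33 and 1.42 and then 5.02, 5.86 and 5.04. Irf1 was ahead in PBS replicate 1 with both lengths, but which gene was ahead in PBS replicates 2 and 3 depended on the length used. The order of the groups did not, since the length scales all 6 libraries alike, and the ratio was higher in each WGP library than in any PBS library.

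The 3 genes with the profile nearest to Irf1 over the 6 libraries, by the root mean square difference of mean-centred log2 CPM among 8567 genes, were Slc2a1 (0.126), Tap1 (0.169) and Slc7a11 (0.187). Slc2a1 encodes the glucose transporter GLUT1, Tap1 a subunit of the peptide transporter of MHC class I loading, and Slc7a11 the cystine transporter. Their log2 fold changes were 2.26, 2.21 and 2.29, close to the 2.30 of Irf1. The likeness covers the group difference and the spread between libraries together.

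Of the factors downstream of innate sensors, Irf7 rose and Irf3 did not pass the test. Irf7 (ENSMUSG00000025498, chr7:141262706-141266481), the inducible amplifier of type I interferon, was at 83.3, 82.6 and 70.5 CPM in the PBS libraries and at 305, 274 and 341 CPM in the WGP libraries. The groups were far apart and each was tight. The means were 78.8 ± 7.18 and 306 ± 33.7 CPM, a log2 fold change of 1.96 (SE 0.15, adjusted p = 2.74e-05 in edgeR), the smallest p among the members.

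Irf3 (ENSMUSG00000003184, chr7:44997648-45002848), the constitutively made factor of the same branch, was at 84.6, 79.0 and 66.2 CPM in the PBS libraries and at 70.1, 57.8 and 71.4 CPM in the WGP libraries. The groups overlapped. The log2 fold change was -0.20 (SE 0.17, adjusted p = 0.466 in edgeR) with an approximate 95% interval of -0.53 to 0.12, which leaves room for a moderate fall and little for a rise. Per kilobase of exon the level of Irf7 was 0.901, 0.957 and 0.975 times that of Irf3 in the PBS libraries and 3.98, 4.33 and 4.37 times in the WGP libraries. The 2 genes were thus at close levels in each PBS library, and Irf7 was ahead in each WGP library. Irf3 shares 88 exonic bases with Bcl2l12 and Irf7 shares 45 with Phrf1, in each case on the opposite strand.

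Irf5 (ENSMUSG00000029771, chr6:29526625-29541871), an activator of inflammatory cytokine genes downstream of Toll-like receptors, was at 271, 321 and 334 CPM in the PBS libraries and at 491, 438 and 416 CPM in the WGP libraries. The groups did not overlap, but the gap between them was small. The rise from 309 ± 33.1 to 449 ± 38.6 CPM, a log2 fold change of 0.54 (SE 0.15, adjusted p = 0.0346 in edgeR), was the weakest among the called members. It did not pass with PBS replicate 2 left out (adjusted p = 0.103 in edgeR), nor with WGP replicate 1 (0.135), 2 (0.0620) or 3 (0.0743) left out, nor when only library totals were used for scaling (0.0624). Irf5 shares 411 exonic bases with Tnpo3 on the opposite strand.

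The pair that carries type I interferon receptor signals split at the threshold. Stat2 (ENSMUSG00000040033, chr10:128270559-128292849) was at 124, 121 and 119.8 CPM in the PBS libraries and at 259, 312 and 319 CPM in the WGP libraries. The PBS libraries were nearly equal and every WGP library was higher. The rise from 122 ± 1.89 to 297 ± 32.9 CPM was a log2 fold change of 1.29 (SE 0.14, adjusted p = 0.000225 in edgeR).

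Irf9 (ENSMUSG00000002325, chr14:55603571-55610030), the DNA-binding subunit of that complex, was at 103, 116.6 and 93.0 CPM in the PBS libraries and at 149, 117.5 and 142 CPM in the WGP libraries. WGP replicate 2 was barely above PBS replicate 2, so the groups only just failed to overlap. The means were 104 ± 11.9 and 136 ± 16.3 CPM, and the log2 fold change of 0.39 (SE 0.16) had an adjusted p of 0.143 in edgeR and an approximate 95% interval of 0.08 to 0.69. Irf9 shares 123 exonic bases with Rnf31 on the same strand, where reads cannot be assigned to 1 of the genes. Per kilobase of exon the level of Stat2 was 0.850, 0.734 and 0.909 times that of Irf9 in the PBS libraries and 1.23, 1.87 and 1.59 times in the WGP libraries. With the union of all annotated exons these ratios were 1.10, 0.946 and 1.17 and then 1.58, 2.41 and 2.04.

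Irf8 (ENSMUSG00000041515, chr8:120736358-120756694), a lineage factor of monocytes and type 1 dendritic cells that B cells also express, was at 275, 253 and 199.5 CPM in the PBS libraries and at 401, 563 and 449 CPM in the WGP libraries. Each WGP library was above all PBS libraries. The rise from 243 ± 38.8 to 471 ± 83.2 CPM was a log2 fold change of 0.96 (SE 0.18, adjusted p = 0.00521 in edgeR). In a fit with a term for libraries that held Y-linked counts it was 0.78. That term covers PBS replicates 2 and 3, so this fit sets the WGP libraries against PBS replicate 1 alone. The 8 leukocyte and myeloid markers summed to between 9960.2 and 16118 CPM in the PBS libraries and to between 22814 and 24160.2 CPM in the WGP libraries. Of these markers 5 rose and 0 fell, where 7.54% of all genes rose and 6.81% fell. The gap between the sums rested on Lyz2, at 4933, 8043 and 8230 CPM in the PBS libraries and 16480, 15657 and 16887 CPM in the WGP libraries. Csf1r, Cd68 and Adgre1 had negative log2 fold changes that did not pass. Of the 7 markers of type 1 dendritic cells 0 rose and 2 fell, with sums of 474 to 855 CPM in the PBS libraries and of 314 to 410.3 CPM in the WGP libraries. Of the 8 markers of Ly6C-high monocytes 5 rose, Ly6c2, Ccr2, Plac8, Hp and Vcan, and 1 fell, F13a1, which the resident macrophage list also holds. The sums of 2671 to 4232 and of 3865 to 4439 CPM overlapped. That overlap rested on F13a1, at 1335, 2728 and 3474 CPM in the PBS libraries and 422, 347 and 503 CPM in the WGP libraries. The part of these cells in the Irf8 result was not tested.

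**Figure D2:**
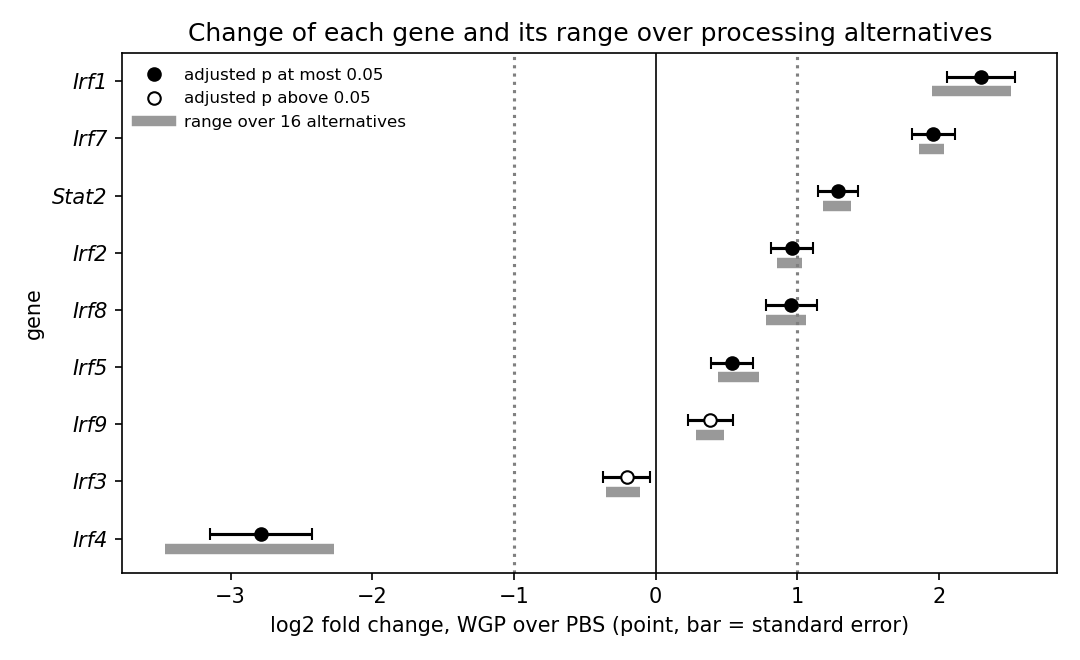
Log2 fold change of each of the 9 genes, WGP over PBS, with a bar of 1 SE to each side, filled points for an adjusted p of at most 0.05 in edgeR, a grey bar below for the range over the 16 processing alternatives, and dotted lines at -1 and 1. Irf1 lies highest at 2.30 and Irf4 lowest at -2.78, and no grey bar reaches 0.

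Irf4 (ENSMUSG00000021356, chr13:30749226-30766976), a factor of B and plasma cells, type 2 dendritic cells and alternatively activated macrophages, was the only member that fell. It was at 426, 199 and 173 CPM in the PBS libraries and at 48.8, 25.8 and 41.2 CPM in the WGP libraries. PBS replicate 1 was far above the other PBS libraries, and every WGP library was below all of them. The means were 266 ± 139 and 38.6 ± 11.7 CPM, a log2 fold change of -2.78 (SE 0.36, adjusted p = 0.000550 in edgeR), or a level 6.89-fold higher in the PBS libraries. Without PBS replicate 1 the log2 fold change was -2.27 (adjusted p = 0.000174 in edgeR). In the fit with a term for Y-linked counts, which compares with PBS replicate 1 alone, it was -3.46. The WGP libraries held 1799, 1069 and 1687 Irf4 counts. The most frequent low count of a gene was 19 to 41 reads depending on the library, and the Irf4 counts were 94.7, 33.4 and 60.3 times that number in the WGP libraries and 253 to 399 times in the PBS libraries.

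Markers of B cells, resident macrophages and acinar cells were also lower in the WGP libraries, where 6.81% of all genes fell and 7.54% rose. All 7 B cell markers fell, and their sum was 2705, 686 and 399.8 CPM in the PBS libraries and 163, 189 and 94.7 CPM in the WGP libraries. The sort for CD11b would remove most B cells, although some B-1 cells carry it. PBS replicate 1 was the highest PBS library in both this sum and Irf4, but the order was not particular to B cells. The summed markers of plasma cells (329, 136 and 123 CPM), plasmacytoid dendritic cells (315, 153 and 76.6 CPM), NK cells (198, 92.4 and 43.6 CPM) and neutrophils (5300.3, 2734 and 1582 CPM) followed it in the PBS libraries. So did those of type 1 and migratory dendritic cells, T cells, eosinophils, mast cells and proliferation. For plasmacytoid dendritic cells the order rested on Ly6d (250, 51.1 and 29.6 CPM). Ccr9 and Pacsin1 were also highest in PBS replicate 1, but Siglech (17.6, 38.0 and 28.9 CPM), Klk1 and Cox6a2 were not. For type 1 dendritic cells the order rested on Wdfy4 (766, 451 and 387 CPM). All 8 resident macrophage markers fell as well, from sums of 4937, 10008 and 12976 CPM to sums of 922, 1065 and 1081 CPM, but here PBS replicate 1 was the lowest of the PBS libraries. All 9 markers of pancreatic acinar cells fell too, from sums of 2276, 5433 and 1458 CPM to sums of 411, 606 and 376 CPM, with PBS replicate 2 the highest.

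Of the 7 type 2 dendritic cell markers 3 fell and 1 rose, with sums of 835 to 1671 CPM in the PBS libraries and of 295 to 405.0 CPM in the WGP libraries. Of the 6 plasmacytoid dendritic cell markers 2 fell and 0 rose, with sums of 76.6 to 315 and of 16.5 to 36.1 CPM. Plasma cell markers had 2 rises and 1 fall of 6, and their sums of 123 to 329 and 113 to 193 CPM overlapped. The part of these cells in the Irf4 result was not tested.

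**Figure D3:**
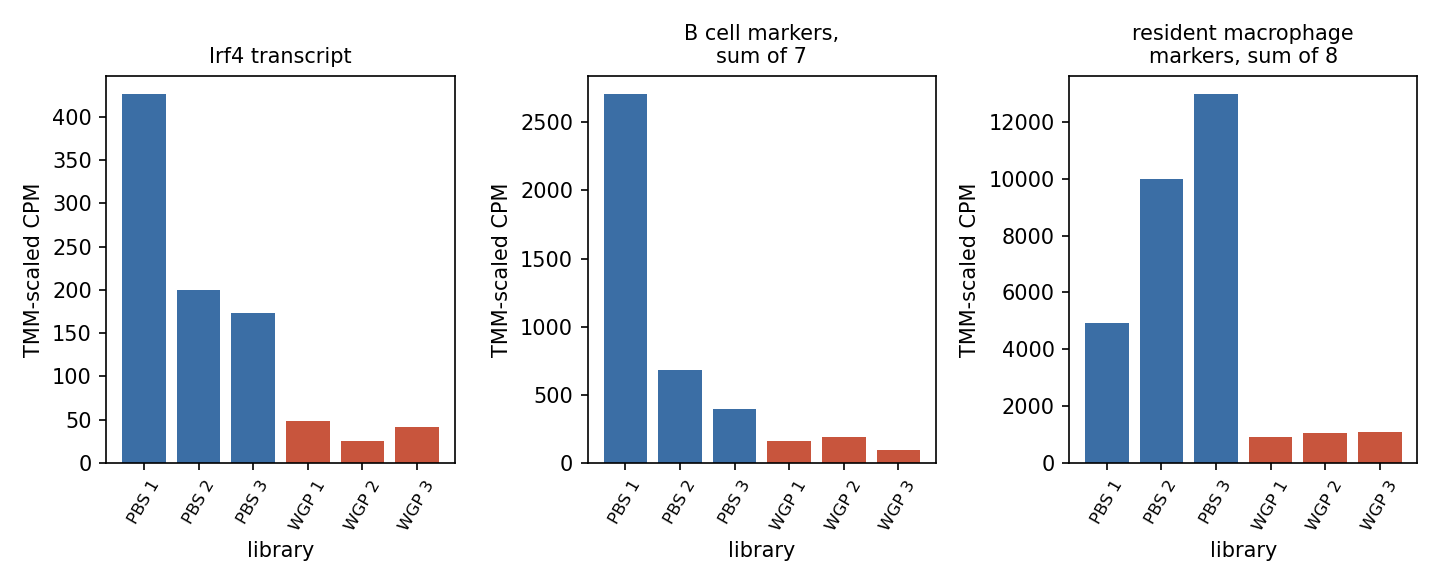
Irf4 level, the summed level of 7 B cell markers and the summed level of 8 resident macrophage markers in TMM-scaled CPM, with 1 bar per library (3 PBS, 3 WGP). The WGP bars are lowest in each panel, and PBS replicate 1 is the highest PBS library for Irf4 and for the B cell markers and the lowest for the resident macrophage markers.

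Per kilobase of exon, the level of Irf4 was 1.12, 0.568 and 0.625 times that of Irf8 in the PBS libraries and 0.0877, 0.0330 and 0.0663 times in the WGP libraries. With the union of all annotated exons it was 2.23, 1.13 and 1.25 times and then 0.175, 0.0659 and 0.132 times, so whether Irf4 was above Irf8 in PBS replicates 2 and 3 depended on the length used. Irf5 was at 1.15, 2.90 and 3.48 times the level of Irf4 in the PBS libraries and at 18.1, 30.6 and 18.2 times in the WGP libraries. Relative to both of these myeloid factors, Irf4 was lower in every WGP library than in any PBS library. The genes nearest to the Irf4 profile, by the measure used for Irf1, were Prr5 (0.247), Cacna1e (0.313) and Olfml3 (0.385). Prr5 encodes a partner of the mTOR complex and Cacna1e a calcium channel subunit. Their log2 fold changes were -2.69, -3.02 and -2.63, and Cacna1e, at 195 CPM in PBS replicate 1 and 45.5 and 46.9 CPM in the other PBS libraries, was also highest in that library.

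Levels compared between genes are given per kilobase of exon (CPM per kb). In the PBS libraries the order of mean levels was Irf5 (117 CPM per kb), Irf2 (73.7), Irf8 (70.6), Irf1 (62.8), Irf4 (55.8), Irf3 (35.0), Irf9 (33.5), Irf7 (32.9) and Stat2 (27.6). Irf5 stood clear of Irf2 and Irf7 stood clear of Stat2, and all other neighbours overlapped between libraries. In the WGP libraries the order was Irf1 (308 CPM per kb), Irf5 (170), Irf2 (143), Irf8 (137), Irf7 (128), Stat2 (67.4), Irf9 (43.8), Irf3 (30.4) and Irf4 (8.10). Here the libraries overlapped in the steps from Irf5 to Irf2, from Irf2 to Irf8 and from Irf8 to Irf7, and in no other step. The order depends on which transcripts set the length: with the union of all annotated exons Irf2 was rank 5 in the PBS libraries and rank 6 in the WGP libraries, Irf4 was rank 2 in the PBS libraries, Irf7 rank 3 in the WGP libraries, and Irf5 and Irf1 kept rank 1.

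As a share of the summed level per kilobase of the 9 genes, Irf1 took 12.2% ± 2.30 under PBS and 29.5% ± 3.89 under WGP (SD, n = 3 each). Irf4 took 15.9%, 8.30% and 7.88% under PBS and 1.03%, 0.478% and 0.883% under WGP. The share of Irf7 was 6.48% ± 0.332 under PBS and 12.5% ± 2.24 under WGP. Irf2 and Irf8, which rose, held about the same share in both groups, at 14.6% and 13.8% for Irf2 and at 13.8% and 13.2% for Irf8. Irf5 took 23.2% ± 4.62 and 16.4% ± 2.04, and its groups overlapped. With the union of all annotated exons the share of Irf1 was 14.6% under PBS and 36.1% under WGP, that of Irf4 14.8% and 1.13%, and that of Irf2 7.07% and 6.78%. A share can fall while the level rises, and shares are descriptions without a test.

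**Figure D4:**
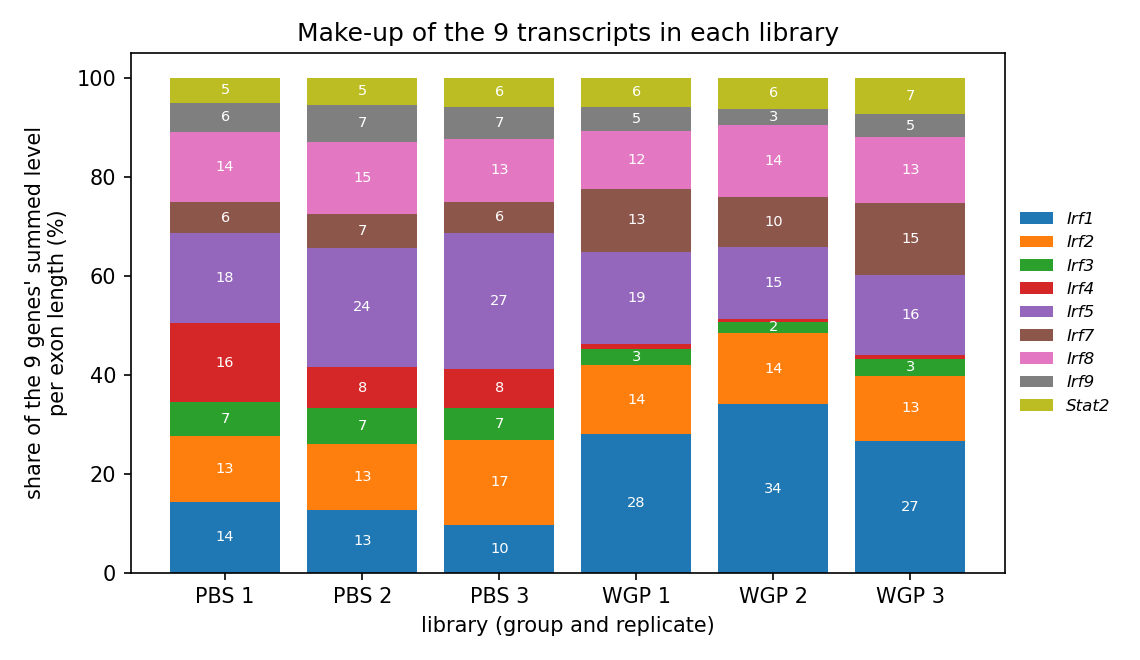
Share in percent of the summed level per kilobase of exon of the 9 genes, with 1 stacked bar per library (3 PBS, 3 WGP). Irf1 widens from 9.71% to 14.2% in the PBS bars to 26.7% to 34.0% in the WGP bars, and Irf4 narrows to at most 1.03%.

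The genes around the 9 factors were read from 6 lists in the same fit. The median log2 fold change of all genes tested was -0.05, and 14.4% passed, 7.54% as rises and 6.81% as falls. Members of near-identical families such as the Gbp, Oas, Irgm and Ifit genes are uncertain where reads could have been split between copies. Of the upstream sensors, adaptors and kinases 21 were tested, of which 8 rose and 1, Tlr7, fell, with a median of 0.58. Ikbke, a kinase that phosphorylates IRF3 and IRF7, was at 57.1, 54.0 and 47.2 CPM in the PBS libraries and at 455, 452 and 499 CPM in the WGP libraries, a log2 fold change of 3.15 (adjusted p = 3.69e-06 in edgeR). Tmem173, which encodes the adaptor STING, and Myd88, the adaptor of most Toll-like receptors, rose with log2 fold changes of 1.35 and 1.16. Tlr7, named after its values were seen, had a log2 fold change of -0.93 (adjusted p = 0.0427 in edgeR).

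Of the interferon ligands, receptors and receptor kinases 11 of 16 were tested, of which 5 rose and 1 fell, with a median of 0.55. The 5 others, Ifna1, Ifna2, Ifna4, Ifnl2 and Ifnl3, had 0 counts in all 6 libraries. Ifnb1, the interferon beta gene, was at 9.78, 11.8 and 12.6 CPM in the PBS libraries and had 0 counts in each WGP library, where 3 counts would have been between 0.0692 and 0.0785 CPM of the library total. The most frequent low count of these libraries, a coarser limit, was 0.497 to 0.738 CPM of the total, below each PBS level. It was called as a fall (adjusted p = 0.000153 in edgeR). The receptor gene Ifngr2 rose with a log2 fold change of 1.51. The kinase gene Jak2 rose from 134, 132 and 104 CPM in the 3 PBS libraries to 346, 405 and 294 CPM under WGP (adjusted p = 0.000279 in edgeR).

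Of the type I interferon-stimulated genes 27 of 28 were listed and tested, of which 19 rose and 1 fell, with a median of 1.21. Zbp1, a nucleic acid sensor, Oasl2, an oligoadenylate synthetase-like gene, and Oas3, an oligoadenylate synthetase, had the smallest p and log2 fold changes of 2.98, 1.79 and 2.11. Oasl1, known to restrain translation of IRF7 and named after its values were seen, had a log2 fold change of -1.53 (adjusted p = 0.000688 in edgeR). All 28 interferon gamma and IRF1 target genes were tested, of which 24 rose and 0 fell, with a median of 2.30, the highest of the 6 lists. Gbp2 and Gbp4, GTPases of cell-autonomous defence, and Nlrc5, the transactivator of MHC class I genes, had log2 fold changes of 4.93, 4.75 and 2.20. An ISRE core stood in the RefSeq windows of 11 of 20 genes of the first of these lists and of 10 of 19 of the second, against 3.99% of all genes.

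**Figure D5:**
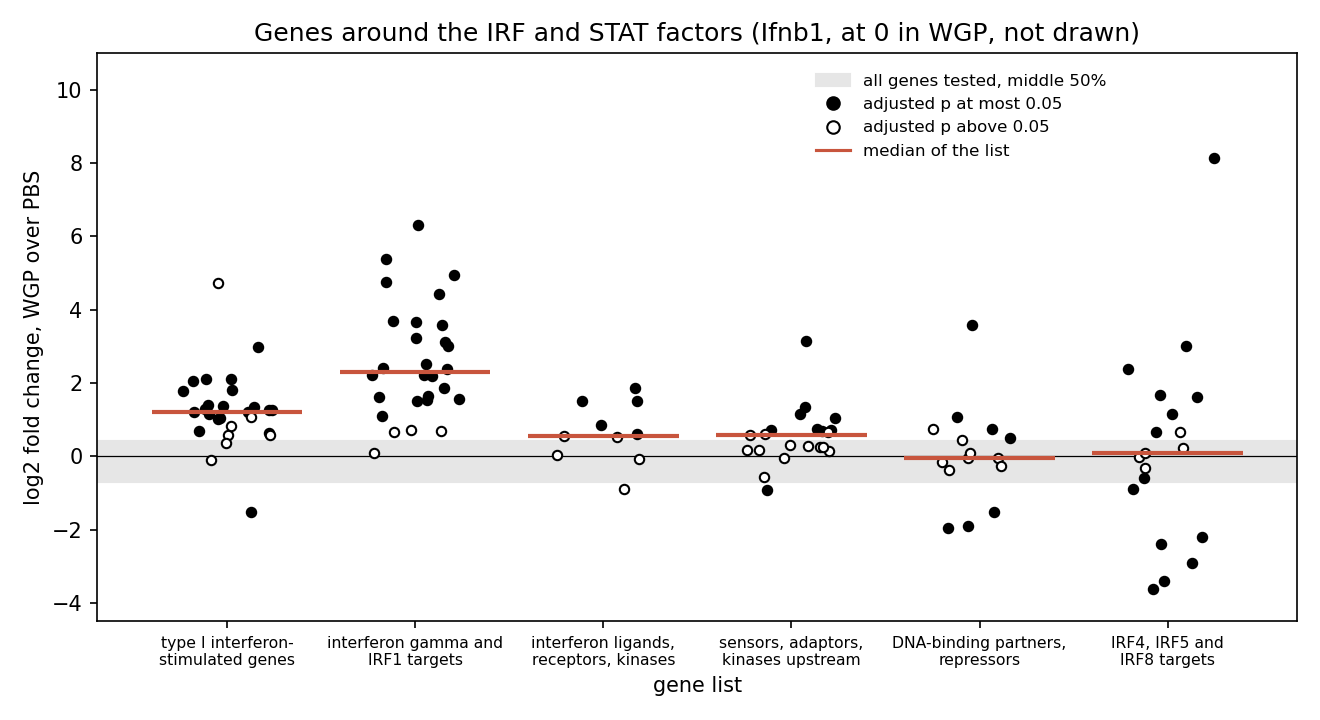
Log2 fold change, WGP over PBS, of each tested gene of the 6 lists except Ifnb1, with filled points for an adjusted p of at most 0.05 in edgeR, lines at the list medians and a grey band for the middle 50% of all genes tested. Ifnb1, at 0 in the WGP libraries and called as a fall, is not drawn. The interferon gamma and IRF1 targets have the highest median at 2.30, and the partner list and the IRF4, IRF5 and IRF8 targets have medians near 0 (-0.04 and 0.09).

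Of the 15 DNA-binding partners and repressors 4 rose and 3 fell, with a median of -0.04. The 7 calls became 4 without PBS replicate 2 and 4 without WGP replicate 1. Batf2, a partner of IRF1, was at 8.30, 9.32 and 9.90 CPM in the PBS libraries and at 85.8, 166 and 76.5 CPM in the WGP libraries, a log2 fold change of 3.58 (adjusted p = 4.65e-05 in edgeR). Spi1, which encodes the partner PU.1 of IRF4 and IRF8, rose with 0.51 (adjusted p = 0.0256 in edgeR), and its relative Spib, also expressed in B cells, fell with -1.96 (0.0305). The AP-1 genes Jun and Jund fell with log2 fold changes of -1.90 and -1.51. Spi1 and Spib were named after their values were seen.

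Of the 19 genes listed as targets of IRF4, IRF5 or IRF8 7 rose and 7 fell, with a median of 0.09. Il1b, the gene of the inflammatory cytokine interleukin 1 beta, had a log2 fold change of 2.99. Klf4, a macrophage transcription factor gene, and Il10, the gene of an anti-inflammatory cytokine, had -2.20 and -3.62. These targets moved in both directions beside Irf5 and Irf8, which rose, and Irf4, which fell.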

How the data were processed

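Raw counts per Ensembl gene were deposited by the authors without normalization, 1 column per library. Per the labels and the study's methods, poly-A RNA was sequenced single-end in 1 run, aligned to mm10 (GRCm38.p6) with STAR 2.6 and counted with HTSeq 0.10.0. The annotation release and strand setting are not given in the sources used here. Genes were named through GENCODE vM21 of the same build, which also gave positions and exon lengths.

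The test of WGP against PBS was the quasi-likelihood test of edgeR 4.0.16 (R 4.3.3, TMM scaling). It was run on 14429 protein-coding genes, those whose RLE-normalized counts added up to 10 or more across the libraries, the study's own filter. Called genes had a Benjamini-Hochberg adjusted p, over all genes tested, of at most 0.05. The SE was taken as the size of the log2 fold change over the square root of F, and approximate intervals use the normal distribution. An exact permutation test of 3 against 3 libraries cannot give a p below 0.1, so none was used. Total counts were 35334645 to 43341834 per library, without molecular identifiers, so limits from counts cover counting error only.

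The 9 members, the 6 pathway lists and the 16 marker lists were chosen with earlier results of these data known. The text names all members, the 3 genes of each pathway list with the smallest p, and the 3 genes nearest in profile to the highest and lowest called member, at a mean of at least 10 CPM. Of the marker lists whose calls the report does not give, neutrophil markers had 2 rises, mast cell markers 1 rise, NK cell and proliferation markers 1 fall each, and T cell, eosinophil and migratory dendritic cell markers no call. Trat1 of the T cell list and Cpa3 and Mcpt4 of the mast cell list were at 0 in all libraries. Alternatives were RLE and upper-quartile scaling, library totals, DESeq2 1.42.0, limma-voom 3.58.1, other filters, Y-linked counts as a covariate, the replicate number as a block, leaving out each library and, added after seeing the data, counts divided by the most frequent low count. Values of other STAT genes are not reported here.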

Additional observations from a re-analysis of the deposited data

How the results depend on the processing

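Each member kept its direction under all 16 alternatives. Irf1, Irf2, Irf4, Irf7 and Stat2 passed under all of them, Irf8 under 15, Irf5 under 10, and Irf3 and Irf9 under none, with adjusted p from 0.309 to 0.750 and from 0.0975 to 0.372. Between 6 and 7 members passed with each library left out in turn. The called members of the partner list, 7 at first, numbered from 4 to 6 with a library left out. There were 4 without PBS replicate 2 and 4 without WGP replicate 1. The fit with the Y-linked covariate set the WGP libraries against PBS replicate 1 alone. It is the alternative under which Irf8 did not pass. Library totals alone moved the median log2 fold change of all genes from -0.05 to -0.16. The replicate numbers were not taken as pairs, since deviations from the group means correlated at 0.0839, -0.0628 and 0.0671 over 8568 genes. With the replicate number as a block 6 members and 1947 genes passed, against 7 and 2071 without it, and Irf5 (log2 fold change 0.54, adjusted p = 0.0748 in edgeR) was the member that did not. Not every library correlated best with its own number. Without molecular identifiers, repeated reads of 1 molecule cannot be removed, which limits the precision for the lowest level, that of Irf4 in WGP replicate 2.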
